A study of Homo sapiens with 16 samples.

Results

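The site described here is a stretch of almost uninterrupted guanines in an intron of LINC00486, a long non-coding RNA gene on chromosome 2. Its members are the peaks of 9 peak lists that overlap a window of 200 kb that holds the site and runs from inside TTC27 to inside LTBP1 in the genome build hg38. There were 8 such peaks among 40118 in all lists together, and 7 of the 8 lay over the guanine-rich stretch. The site was chosen by measured values, since its peak had the highest fold enrichment in 2 of the lists. The window was also placed around the guanine-rich stretch. The fold enrichments and the base composition below are therefore a description and carry no test.

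The lists come from immunoprecipitations with the 1H6 antibody, raised against the G-quadruplex, in HEK293T cells, a human embryonic kidney cell line. G4 DNA-IPnat and G4 DNA-IPdenat used purified genomic DNA, double-stranded in the first and heat-denatured in the second, with 1 shared input. Neither the labels nor the paper name an shRNA for these samples or for G4-ChIP. G4-ChIP used fixed and sonicated chromatin. In AbC G4-ChIP the antibody was let into briefly fixed and permeabilised cells before the chromatin was sheared. These cells were transduced and puromycin-selected for a non-targeting shRNA (CT) or an shRNA against CGGBP1 (KD), a nuclear protein that binds GC-rich repeats. CT and KD were each assayed without any added control DNA (nuc). They were also assayed with folded control DNA, carrier DNA and antibody put into the lysate (ut). The tr samples were taken 12 h after transfection with 1.25 µg of control DNA next to as much carrier DNA. For ut the sample labels give 500 ng of control DNA, whereas the paper's methods give 1.25 µg each of control and carrier DNA. An Ion Torrent S5 read the nuc samples, and a MinION, a long-read sequencer, read the rest. Each list stands for 1 library pooled by the authors from 4 replicates, so there is no spread between replicates for any list. The lists hold no read counts, so the number of reads behind each peak is unknown here. The paper reports total reads and mean read lengths for the purified DNA, G4-ChIP and nuc samples, which were not used here.

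A G-quadruplex is a 4-stranded fold in which guanines of one strand pair in flat stacked rings, and runs of 3 or more guanines separated by short loops are its best known sequence signature. Single-stranded guanine-rich DNA takes up the fold readily, whereas pairing with the cytosine-rich strand competes with it.

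The sequence was read from hg38 on the plus strand, which is also the sense strand of LINC00486, and capitals mark runs of 3 or more guanines. The first stretch, at chr2:32916091-32916190, is shown because it ends where the peaks do not reach, and holds 6 guanines in 100 bases. The second, at chr2:32916373-32916625, is the known part of the sequence shared by all 7 peaks and holds 245 guanines in 253 bases. The third, at chr2:32917626-32917725, is the first known sequence beyond the 1000 unknown bases that follow the second.
Left flank: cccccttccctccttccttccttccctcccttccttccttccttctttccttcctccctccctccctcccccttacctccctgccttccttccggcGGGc
Known part of the core: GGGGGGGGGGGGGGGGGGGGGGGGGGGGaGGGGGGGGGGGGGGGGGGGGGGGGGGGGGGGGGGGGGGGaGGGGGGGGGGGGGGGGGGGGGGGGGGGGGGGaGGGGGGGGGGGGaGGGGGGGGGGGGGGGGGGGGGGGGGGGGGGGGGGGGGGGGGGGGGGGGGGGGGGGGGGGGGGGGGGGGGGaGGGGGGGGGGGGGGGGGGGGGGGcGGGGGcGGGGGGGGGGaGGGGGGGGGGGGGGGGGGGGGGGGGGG
Right of the gap: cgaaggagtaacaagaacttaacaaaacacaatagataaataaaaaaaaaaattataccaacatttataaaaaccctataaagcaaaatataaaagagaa

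From chr2:32916242-32916625, where the guanine-rich stretch begins and the known sequence ends, 370 of 384 bases were guanine, 10 were adenine, 3 were cytosine and 1 was thymine. Guanine made up 96.4% of this stretch and 12.6% of the 1000 bases to its left, which were mostly cytosine (32.5%) and thymine (38.7%). The 1000 known bases right of the gap were 52.2% adenine. Runs of at least 40 guanines or cytosines in the stretch numbered 4, with lengths of 92, 49, 70 and 40 bases. The stretch also held at least 4 runs of GGG with loops of 1 to 7 bases, the usual signature of a G-quadruplex.

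The gap of unknown bases, chr2:32916626-32917625, was 1 of 7 gaps of exactly 1000 bases in hg38. Another of them, at chr2:32867131-32868130, lies in the same window, and 48495 known bases separate the pair. No list had a peak within 300 bases of any of the other 6 gaps. Guanine or cytosine, whichever was the more frequent, made up between 3.67% and 58.7% of the 300 bases on either side of those 6 gaps.

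The stretch was compared with the rest of hg38 (chromosomes 1 to 22 and X) by guanines on 1 strand and by guanines and cytosines together. The densest 300 bases of the site held 291 guanines, against 231 in the next densest locus. Uninterrupted runs of at least 20 guanines, or of 20 cytosines, occurred 94 times, and 7 of them were in the site. The 5 longest of all, with 81, 70, 49, 39 and 31 guanines, were there too. The longest elsewhere had 30. When guanines and cytosines were both allowed, the longest run of the site, of 92 letters, ranked 9th in hg38, behind 8 runs of 98 to 261 letters, none of which was in a peak of any list. The site's own runs of 92 letters and of 81 guanines overlapped no peak in CTut, CTtr, CTnuc or KDnuc. No peak of any list covered either of these runs whole.

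**Figure D1:**
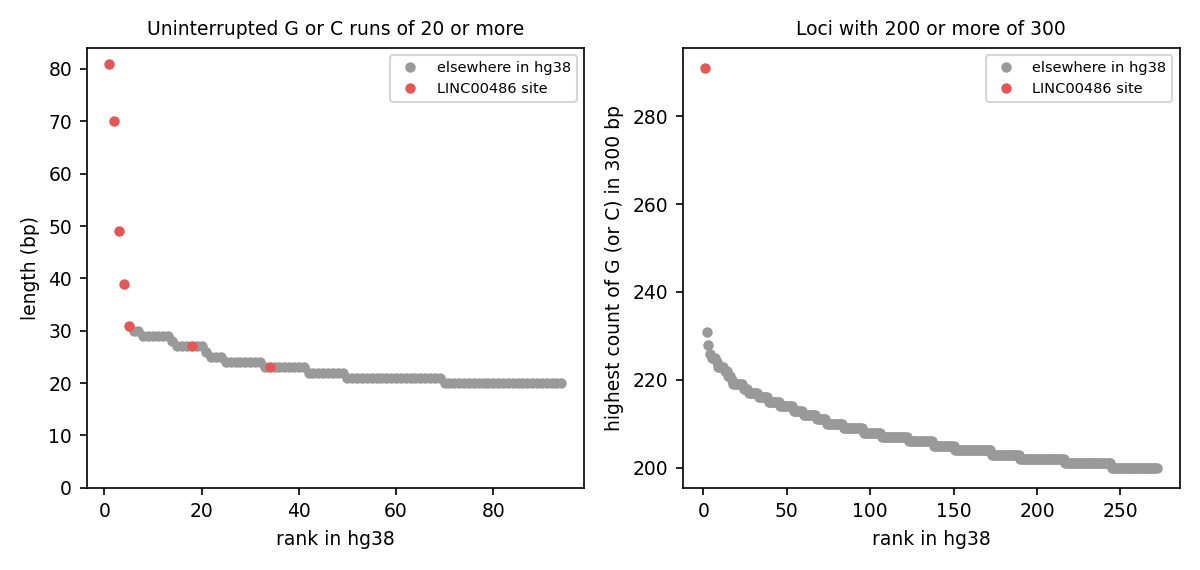
Left, length in bp of each uninterrupted run of at least 20 guanines (or cytosines) in hg38 against its rank. Right, highest count of guanines (or cytosines) in 300 bp at each of 272 loci that reach 200. Red points are the LINC00486 site and grey points are all other places; the site holds the 5 longest runs and, with 291, the densest window.

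The site is intronic. LINC00486 (ENSG00000230876.8) spans chr2:32825359-32926693 on the plus strand, and in 2 of its 8 annotated transcripts (GENCODE 44) the peaks fall in the intron chr2:32902124-32925352, which is the last intron of both. Together the 7 peaks covered chr2:32916266-32917320, which begins 14142 bp after the upstream exon and ends 8032 bp before the next. The nearest protein-coding genes are LTBP1, which encodes a binding protein of latent TGF-beta and starts 30355 bp to the right, and TTC27, which ends 95190 bp to the left. A lncRNA gene, ENSG00000236854, and a Y_RNA gene between LINC00486 and LTBP1 had no peak in any list.

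All 7 MinION lists had 1 peak over the guanine-rich stretch, and neither Ion Torrent list had one. In G4 DNA-IPnat the peak ran over chr2:32916312-32916719 (408 bp), with a fold enrichment over the peak caller's background of 13.3 and a −log10 q of 18.5. In G4 DNA-IPdenat it ran over chr2:32916272-32916981 (710 bp), with a fold enrichment of 13.8 and a −log10 q of 21.2. In G4-ChIP it ran over chr2:32916266-32916776 (511 bp), with a fold enrichment of 41.1 and a −log10 q of 97.0. G4-ChIP thus had the highest fold enrichment of the site, which is 1 of the values by which it was chosen. The AbC lists, also from chromatin, had between 5.52 (CTtr) and 13.7 (KDtr). Both lists from purified DNA had almost the same fold enrichment, but they were called with different settings.

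In CTut the peak ran over chr2:32916340-32917320 (981 bp), with a fold enrichment of 8.27 and a −log10 q of 26.2. In KDut it ran over chr2:32916303-32917261 (959 bp), with a fold enrichment of 13.4 and a −log10 q of 50.1. Both AbC G4-ChIP peaks with control DNA in the lysate were the longest of the 7. In CTtr the peak ran over chr2:32916373-32916982 (610 bp), with a fold enrichment of 5.52 and a −log10 q of 8.85. In KDtr it ran over chr2:32916298-32917024 (727 bp), with a fold enrichment of 13.7 and a −log10 q of 45.0. CTtr had the lowest fold enrichment and the lowest −log10 q of the site, and the KD lists were above the CT lists in both pairs.

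The remaining member was a G4 DNA-IPdenat peak at chr2:32968361-32969047, inside LTBP1, with a fold enrichment of 4.99 and a −log10 q of 3.49. Its GC content was 42.1%, and 10048 of the 15709 peaks in that list had a lower fold enrichment. It had no counterpart in the other lists.

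Left edges agreed more closely than right edges. The 7 left edges lay within 107 bp of each other, all inside the guanine-rich stretch, and none reached the cytosine- and thymine-rich flank. The 7 right edges were spread over 601 bp, and all of them lay inside the unknown bases. G4 DNA-IPnat reached 94 bp and G4-ChIP 151 bp into the gap, G4 DNA-IPdenat 356 bp, CTtr 357 bp, KDtr 399 bp, KDut 636 bp and CTut 695 bp. Unknown bases therefore made up between 23.0% (G4 DNA-IPnat) and 70.8% (CTut) of a peak. There is no sequence in hg38 to set against these bases, so the right edges do not locate captured sequence. The authors set the peak caller's bandwidth to 300 in the lists with the shortest reach, G4-ChIP and G4 DNA-IPnat, and to 3000 in the other 5. The settings of peak calling and the kind of assay cannot be told apart.

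The sequence common to all 7 peaks was chr2:32916373-32916719, 347 bp, of which 253 bp are known. Among the 21 pairs of peaks, the shared length over the joint length was lowest for G4 DNA-IPnat and CTut (0.377) and highest for G4 DNA-IPdenat and KDtr (0.908). The peaks were short for their lists: the median peak of a list was between 1439.5 and 1958.5 bp long, and the CTtr peak was the shortest of its list or tied with it.

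**Figure D2:**
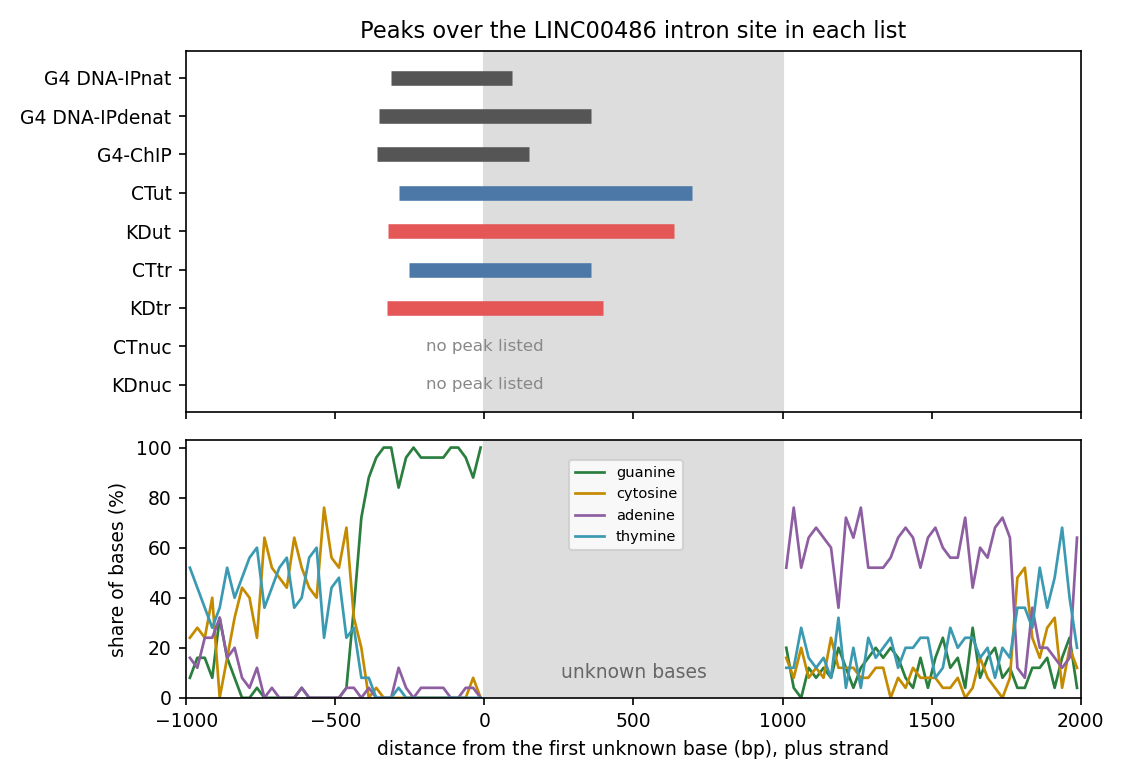
Top, extent of the peak over the site in each list, in bp from the first unknown base, with CT in blue, KD in red and the other assays in grey; grey shading marks the 1000 unknown bases. Bottom, share of each base in bins of 25 bp; all 7 peaks start within the guanine-rich stretch and end inside the unknown bases.

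Within its own list the site ranked first by fold enrichment in G4-ChIP and in G4 DNA-IPnat, by which values it was chosen. The next highest fold enrichment was 18.7 in G4-ChIP and 10.8 in G4 DNA-IPnat. It ranked 57th of 15709 in G4 DNA-IPdenat, where 99.6% of the peaks had a lower fold enrichment. In AbC G4-ChIP it ranked 15th of 2927 in KDut and 20th of 2389 in KDtr, but 250th of 3496 in CTut and 383rd of 2367 in CTtr. In these terms 99.5% of the KDut peaks, 99.2% of the KDtr peaks, 92.8% of the CTut peaks and 83.8% of the CTtr peaks had a lower fold enrichment than the site. Relative to the median peak of its list, the site was 8.92 times as enriched in G4-ChIP, 2.27 times in G4 DNA-IPnat and 1.47 times in CTtr. Ranking by −log10 q gave the same first places in G4-ChIP and G4 DNA-IPnat.

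**Figure D3:**
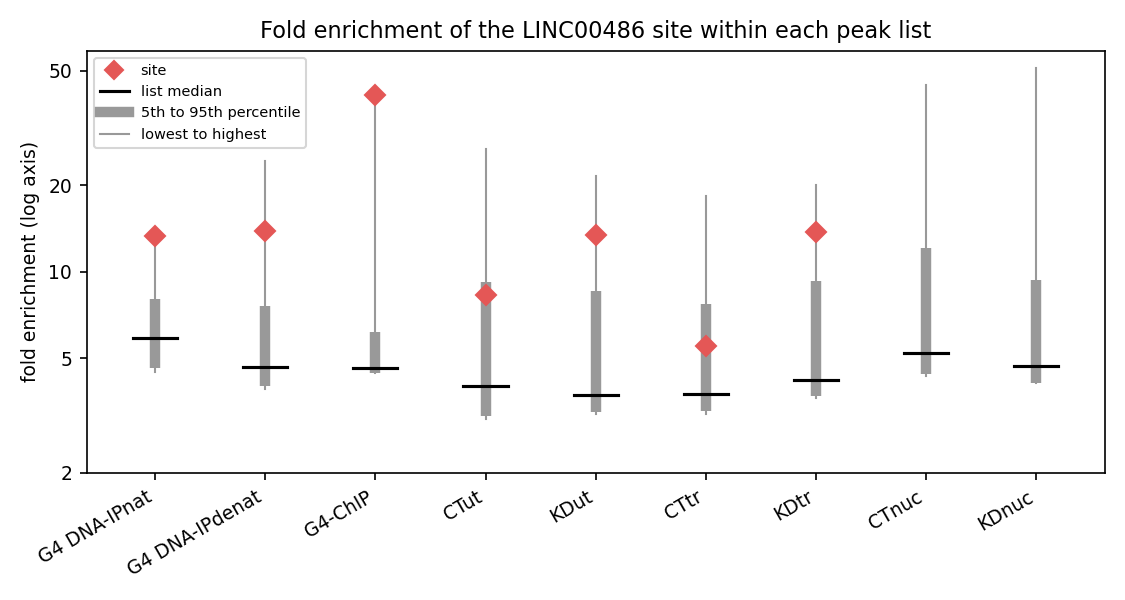
Fold enrichment over the peak caller's background (log axis) of the site in each list (red diamond), with the list's median, its 5th to 95th percentile (thick bar) and its lowest to highest value (thin line). The site is at the top of G4 DNA-IPnat and G4-ChIP, above the thick bar in G4 DNA-IPdenat, KDut and KDtr, and inside it in CTut and CTtr.

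By base composition the site stood apart from the other peaks of each list. The window was placed around the guanine-rich stretch, so this contrast is part of the choice and describes the site only. Its peaks were between 96.5% and 97.6% guanine or cytosine over their known bases. The highest value of any other peak was 68.6% in G4-ChIP, 69.5% in G4 DNA-IPnat and 77.7% in KDtr. The median peak of a list had a GC content between 35.3% and 39.3%. A run of at least 20 guanines alone, or of 20 cytosines alone, was found in no other peak of G4-ChIP, G4 DNA-IPdenat or G4 DNA-IPnat. Such a run was found in 1 other peak in each of CTut, KDut, CTtr and KDtr. That run, of 21 bases, lies at chr4:190067638-190067658 in DBET, a lncRNA gene of the D4Z4 repeat.

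The other guanine-dense places of hg38 were looked up in the lists as well. Peaks covered between 0.0233% (G4 DNA-IPnat) and 1.15% (G4 DNA-IPdenat) of its known bases, so few of any set of loci would be in a peak. Of the 271 other loci with at least 200 guanines (or cytosines) in 300 bases, 0 overlapped a peak in any of the 9 lists. Of the 438 other runs of at least 40 letters that were guanine or cytosine in any mixture, 433 had a peak in no list. The number with a peak was 4 in KDut and in KDtr, 3 in CTut and in G4-ChIP, 2 in G4 DNA-IPnat and in KDnuc, 1 in CTtr and 0 in CTnuc and in G4 DNA-IPdenat. All 5 runs with a peak were 41 or 42 letters long and lay between 8212218 and 8444332 on chromosome 21, inside the lncRNA genes ENSG00000278996 and ENSG00000280441. Whether these 5 runs are copies of 1 repeat was not examined, so they need not count as separate loci. How often reads from such loci could be aligned uniquely is not known from the lists and was not tested.

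Short words of the stretch occur in many places, and long ones do not. Of the words of 30 bases in the known part of the core, 23.7% occurred once in hg38 on either strand, and the most frequent occurred 127 times. The share occurring once was 57.8% for words of 50 bases and 100% for words of 100 bases. In the 400 bases left of the stretch it was 76.3% for 30 bases and 100% for 50 bases. The authors kept only uniquely aligned reads. Only exact matches of words were counted, so these shares do not tell how often reads of the stretch were aligned uniquely, which was not tested.

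The comparison of KD with CT asks whether depletion of CGGBP1 changed the capture of the site. In the ut pair the fold enrichment was 8.27 in CTut and 13.4 in KDut, a ratio of 1.62. In the tr pair it was 5.52 in CTtr and 13.7 in KDtr, a ratio of 2.48. KD was thus above CT in both pairs in which the site had a peak, by a mean of 1.01 on the log2 scale (SD 0.43, n = 2 pairs). No test was made of this difference, since the nuc pair has no value.

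The ratios can be set beside those of every region with a peak in both lists. In the ut pair the median ratio over 1579 regions was 0.935, and 0.887% of them reached at least 1.5, with 11 above the site. In the tr pair the median over 1417 regions was 1.13, and 2.96% reached at least 1.5. None of the 1417 was above the site. The 4 lists were called without a local background (the --nolambda option), so each fold enrichment is relative to 1 background level for the whole genome of that sample and not to the input reads at the site. The inputs were not analysed here.

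The site can also be compared between the control DNA conditions within CT and within KD. CTtr had 0.668 times the fold enrichment of CTut, where the median over 1564 regions was 0.903. KDtr had 1.02 times that of KDut, where the median over 1353 regions was 1.08. The difference between these ratios was not tested. Among the assays for which no shRNA is named, the site in G4-ChIP had 3.09 times its fold enrichment in G4 DNA-IPnat. The median of the 147 regions with a peak in both was 1.01, 15.6% of them reached at least 1.5, and none was above the site, a contrast that holds the values by which the site was chosen. After heat denaturation, in G4 DNA-IPdenat, the fold enrichment of the site was 1.04 times that in G4 DNA-IPnat, and the median of 180 regions was 1.70. The site was chosen by its first place in G4 DNA-IPnat, so nothing is read from this ratio, and the lists were called differently. G4 DNA-IPdenat had the larger bandwidth and no local background, an option that is not stated for G4 DNA-IPnat and G4-ChIP.

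Peaks covered 0, 981 and 610 bp of the window in CTnuc, CTut and CTtr, and 0, 959 and 727 bp in KDnuc, KDut and KDtr. KD minus CT was 0, −22 and 117 bp in the nuc, ut and tr pairs, with a mean of 31.7 bp (SD 74.7, n = 3). No p is given for this difference, since the nuc pair holds no peak on either side and a sign-flip permutation over the other 2 pairs could not go below 0.5. In the ut pair the KD peak began 37 bp further left than the CT peak and ended 59 bp before it, and in the tr pair it began 75 bp further left and ended 42 bp after it. The KD peak thus took in more of the known guanines in both pairs, while the right edges, inside the unknown bases, moved in opposite directions.

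The absence of the site from CTnuc and KDnuc has to be read with what these lists hold. Peak names carry a running number in order of position, and the 7 MinION lists hold every number. CTnuc holds 3796 peaks with numbers up to 10757, so 64.7% of its numbers are absent, and KDnuc holds 7753 with numbers up to 22266, so 65.2% are absent. In KDnuc 14 numbers are absent between the listed peaks on either side of the site, which lie 5.34 Mb to its left and 4.82 Mb to its right. In CTnuc no listed peak of chromosome 2 lies left of the site, the next to its right is 11.2 Mb away, and 3 numbers are absent between it and the last listed peak of chromosome 19. The paper also counts 3796 peaks for CTnuc, so the numbers absent from CTnuc were already absent from the set it reported. Whether one of the absent numbers was a peak over the site cannot be told from the lists. The sequencer also differs between the nuc samples and all others. The sequencer, the absent numbers and the control DNA cannot be told apart.

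The site had few neighbours on its chromosome, which held few peaks in most lists. Chromosome 2 had 9 peaks in G4 DNA-IPnat, 24 in G4-ChIP, between 40 (KDtr) and 104 (CTut) in the ut and tr lists, and 1018 in G4 DNA-IPdenat. How often other peaks stood as far apart was not counted. No list other than G4 DNA-IPdenat had a second peak within 1 Mb, and G4 DNA-IPdenat had 5. The nearest neighbour of the G4-ChIP peak was 4.35 Mb away. In the AbC lists of the ut and tr pairs the next peak to the right was 54.5 Mb away, and in G4 DNA-IPnat it was 56.9 Mb away. Of these lists only CTut had a peak to the left, 31.4 Mb away.

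Few regions could hold a peak of all 7 MinION lists, since the shortest of them, G4 DNA-IPnat, had only 226 peaks. Of 23547 regions made by joining overlapping peaks of the 9 lists, 120 held a peak of each of these 7 lists, and 25 of them held none of CTnuc or KDnuc. The site was 1 of these 25. The other 24 were between 1440 and 25806 bp long, with a GC content between 21.2% and 57.8%. None had a run of guanines alone, or of cytosines alone, over 5 bases. Among the 120, the site ranked 13th by fold enrichment in KDut, 14th in KDtr, 22nd in G4 DNA-IPdenat, 91st in CTut and 112th in CTtr. It ranked 1st in G4 DNA-IPnat and G4-ChIP, which the choice of the site fixed in advance.

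The regions whose fold enrichments were most like those of the site were found by the Euclidean distance of the log2 fold enrichments over the 7 lists. The 5 nearest were at chr8:43237593-43242279 (distance 1.77), chr1:143184468-143276385 (1.90), chr4:51424158-51429051 (1.93), chr4:50672675-50678623 (1.98) and chr16:34580825-34596479 (2.01). The median distance over the 119 other regions was 3.28. None of the 5 resembled the site in sequence, with a GC content between 21.8% and 37.7% and no run of guanines or cytosines over 8 bases in any mixture. The nearest, like the site, had no listed peak in CTnuc and KDnuc, and the other 4 had one in both. In the nearest region, too, the fold enrichment was highest in G4-ChIP (18.7), and it was lower than at the site in every list other than CTut (10.4) and CTtr (8.17).

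Other peaks that touched unknown bases were few. Runs of at least 10 unknown bases were touched by between 6 peaks (G4 DNA-IPnat and G4-ChIP) and 26 peaks (G4 DNA-IPdenat) of a list. The site had the highest fold enrichment of these in KDut, and ranked 3rd in KDtr, 5th in G4 DNA-IPdenat, 8th in CTtr and 9th in CTut. It was also highest in G4 DNA-IPnat and G4-ChIP, where the choice of the site fixed its first place. Of the 7 gaps of 1000 bases, the one at the site was the only one touched in any list.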

How the data were processed

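Peak lists of 9 immunoprecipitates were analysed, and the 7 inputs and all reads were not analysed here. The authors aligned reads to hg38, kept unique alignments and called broad peaks against the input with MACS2, where all AbC samples and G4 DNA-IPdenat were called without a local background (--nolambda) and at a broad cutoff of 0.01. The deposited lists give for each peak a fold enrichment (a ratio to the background of the peak caller, which with --nolambda is 1 level for the whole genome), the −log10 of its p-value and q-value, and a score, which was not used. Starts were converted to 1-based positions. Peaks in the window were matched to the sequence of hg38 and to GENCODE 44. Overlap meant at least 1 shared bp. Ratios used the highest peak of each list in a joined region. For covered length, KD and CT were compared within pairs as values, since the planned sign-flip permutation could not reach 0.05. Those planned for fold enrichment and rank were not made because the nuc lists hold no peak there. The site, the lists and the descriptions were chosen with earlier results of these data known. The genes named were those in the window and the nearest protein-coding ones, and the regions named followed a rule on rank or length, except the densest windows, the homopolymers and the runs on chromosome 21 and in DBET, which were chosen after their values were seen. The functions were tested on simulated data. Python 3.11.15 was used with numpy 2.4.6, scipy 1.17.1, pysam 0.24.0, numba 0.67.0 and matplotlib 3.10.9.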

Additional observations from a re-analysis of the deposited data

Results flagged for a closer look

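The length of the window covered by peaks moved in opposite directions in the pairs with a peak at the site. KD minus CT was −22 bp in the ut pair and 117 bp in the tr pair, with 1 library on each side, and the difference between the pairs was not tested. The fold enrichment of the site was higher in KD in both.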

How the results depend on the processing

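The lists carry the pair names nuc, ut and tr, but no label ties a shared day or culture to a name. The mean KD minus CT differences were 1.01 (log2 fold enrichment), 31.7 bp and 11.0 percentage points of rank. Leaving out the replicate block cannot change these means, by arithmetic, so it is no check of them. Leaving out 1 pair at a time gave between 0.70 and 1.31 on the log2 scale, between 6.64 and 15.3 percentage points, and between −11 and 58.5 bp, where the direction turned to −11 bp without the tr pair. The log2 values in that range rest on 1 pair each. Ranking by −log10 q moved the site from 250th to 289th in CTut and changed the other ranks by less than their counting interval. A minimum of 4 on −log10 q left all 7 peaks over the site and each rank by fold enrichment as they were. The lowest −log10 q of the site was 8.85 (CTtr), so this minimum could not remove any of its peaks. Ranks by fold enrichment and by −log10 q were close, so the ranks had little room to change either. Asking that a peak cover at least 70% of the guanine-rich stretch left 6 lists. With runs of at least 30 letters, between 0 and 12 of 2149 runs outside the site had a peak in a list, and with at least 50 letters 0 of 118 had one. Depth, input coverage and counts under the peaks were not given by the lists, so no error can be attached to a single fold enrichment.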
